A study of Mus musculus with 20 samples.

Results

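The adipocyte progenitor and fibroblast markers described here are 10 genes, Pdgfra, Pdgfrb, Pi16, Dpp4, Cd55, Cd34, Ly6a, Dcn, Lum and Fbln1, of the 46078 genes in the count table. They were chosen by name, as genes known to mark the mesenchymal cells of adipose tissue, and each symbol matched 1 row through its Ensembl identifier. The counts come from TRAP–seq, which sequences the mRNA bound to the tagged ribosomes of 1 cell type, here adipocytes of epididymal adipose tissue (epiAT). All 20 mice were AdipoERCre x NuTRAP animals on a background labelled C576BL6, and all of them, controls included, received tamoxifen before the diets began. Tamoxifen activates a Cre that is driven by the adiponectin (Adipoq) promoter, and Cre then switches on the GFP-tagged ribosomal protein, so that only cells that had used this promoter by the time of tamoxifen, and their descendants, carry the tag. Each library came from an individual mouse. In the short arm, C mice were fed chow and H mice high-fat diet (HFD) for 12 weeks and were 18 weeks old, and CC_s mice were fed chow throughout whereas HC mice returned to chow for 8 weeks after 12 weeks of HFD, both at 26 weeks of age, with 3 mice in each of the 4 groups. In the long arm, CC_l mice were fed chow and HH mice HFD for 25 weeks and were 31 weeks old, and CCC mice were fed chow throughout whereas HHC mice returned to chow for 8 weeks after 25 weeks of HFD, both at 39 weeks of age, with 2 mice in each group. Per the study's methods, the chow fed beside HFD was a low-fat diet. In the last 8 weeks, CC_s, HC, CCC and HHC mice all received a different chow. Each HFD or weight-loss (WL) group was compared with the chow group of its own age and arm. This asks whether the markers shifted in obesity and whether they had returned to chow levels after WL.

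Adipose tissue is renewed from mesenchymal progenitor cells that lie in the connective tissue and along the vessels of the depot. Interstitial progenitors, marked by Pi16, Dpp4 and Cd55, can give rise to committed preadipocytes, and both populations share the PDGF receptor Pdgfra and the surface proteins Cd34 and Ly6a. The same lineage lays down the matrix around adipocytes, including the small leucine-rich proteoglycans decorin and lumican and the glycoprotein fibulin 1. Mature adipocytes are not known as main producers of most of these transcripts. Several of the genes are also used outside the lineage: Pdgfrb marks pericytes and other mural cells, and Cd34 and Ly6a are made by endothelial cells.

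The members lie on 7 chromosomes of mm10, with gene positions taken from GENCODE vM21. Dcn (chromosome 10, 97479609 to 97518143) and Lum (chromosome 10, 97565128 to 97572703), both on the plus strand, are neighbours with 46984 bases between them, and Cd55 (130439027 to 130462744) and Cd34 (194938819 to 194961279) are both on chromosome 1 but far apart. Promoters from RefSeq on GRCm38.p6 were found for 6 of the 10 members (Pdgfra, Pi16, Dpp4, Cd55, Cd34 and Fbln1). The upstream sequences of Cd34 (chr1:194938571-194938818, plus strand) and Fbln1 (chr15:85205699-85205948, plus strand) are shown. These are the members with a promoter at hand whose log2 fold changes against chow differed between HH and HHC in the test described below. They were chosen after their values were seen. Both stretches end immediately before the first annotated exon, and capitals mark a match to a searched motif.
Cd34: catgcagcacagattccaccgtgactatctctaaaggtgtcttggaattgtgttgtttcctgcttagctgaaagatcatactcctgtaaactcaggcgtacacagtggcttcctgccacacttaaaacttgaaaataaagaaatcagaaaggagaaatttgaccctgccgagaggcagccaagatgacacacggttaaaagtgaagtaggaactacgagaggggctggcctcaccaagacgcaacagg
Fbln1: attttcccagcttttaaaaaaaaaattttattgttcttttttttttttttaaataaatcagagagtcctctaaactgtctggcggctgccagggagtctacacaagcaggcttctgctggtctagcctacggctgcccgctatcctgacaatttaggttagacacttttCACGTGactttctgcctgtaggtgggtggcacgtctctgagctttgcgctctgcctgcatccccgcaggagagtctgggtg
Motifs of the TATA box (TATAAA), the CAAT box (CCAAT), Sp factors (GGGCGG), AP-1 factors (TGACTCA) and basic helix-loop-helix factors (CACGTG) were searched on both strands in the 250 bases before each start, and no matches overlapped each other. Fbln1 held CACGTG, which 6.02% of 32851 mouse promoters also hold, and no searched motif was found in the window of Cd34. Among the other members, TATAAA was found in Dpp4 (12.4% of all promoters), CCAAT in Pi16 (33.8%) and GGGCGG in Cd55 and in the second listed promoter of Fbln1 (32.7%). TGACTCA was in none of the 6 members and in 4.46% of all promoters. The 6 members thus shared no searched motif in these windows.

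Depth ranged from 10710277 to 36738954 counts per library, and 21464 genes passed the filter on low counts, all 10 members among them. Levels are given below as CPM, counts scaled to library size with TMM normalization, on which 3 counts correspond to 0.0815 to 0.251 CPM, and the lowest count of any member in any library was 64 (Pi16). Adipoq, Plin1, Cidec and Fabp4, taken from the list of adipocyte markers, were well above that level in every library, with Adipoq at 493 to 8796 CPM. Summed markers of other cells were present too, and 4 libraries, C replicates 1 and 2, HC replicate 3 and CCC replicate 2, stood apart by their nuclear-retained RNA (Malat1, Neat1, Meg3 and Kcnq1ot1), at 20395 to 37596 CPM against 2787 to 12402 CPM elsewhere. HC replicate 3 also had the lowest sum of 10 adipocyte markers, at 19560 CPM. CC_l replicate 1 had the highest sum of 8 spermatid genes, at 3666 CPM against at most 586 CPM in the other libraries. The sum of 8 epididymal epithelium genes was 1822 CPM in C replicate 1 and 1523 CPM in H replicate 2, against at most 458 CPM in the other libraries. In bulk libraries such as these, fewer cells of a type and less RNA per cell cannot be told apart. Results that rest on the libraries named here are given with and without them.

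All 10 members were detected in all 20 mice. Per kilobase of exon, the median level over the 20 mice was highest for Dcn, which encodes decorin, at 129.7 CPM per kb, followed by Ly6a at 73.5 and Lum at 21.2 CPM per kb. Pdgfrb (8.45 CPM per kb), Cd34 (7.97) and Cd55 (6.95) formed a middle group, and Fbln1 (4.54), Pdgfra (2.40), Pi16 (2.22) and Dpp4 (1.28) were lowest. Ranges over mice overlapped between all neighbours in that order. On the same scale Adipoq had a median of 2139.7 CPM per kb and Plin1, which coats lipid droplets, one of 67.7. The median of Dcn per length was therefore above that of Plin1, but far below those of Adipoq, Cidec (2128 CPM per kb) and Fabp4 (8344 CPM per kb).

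Lum varied most across mice, with 76.1 times as many CPM in the highest library (HH replicate 2) as in the lowest (CC_l replicate 1). Cd55 varied least, by 4.80 times, between the same groups (HH replicate 1 and CC_l replicate 1). The other members spanned 9.18-fold (Pdgfra) to 12.5-fold (Cd34). Either HH mouse was the highest library for 7 of the 10 members, and a CC_l mouse was the lowest for 6.

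**Figure D1:**
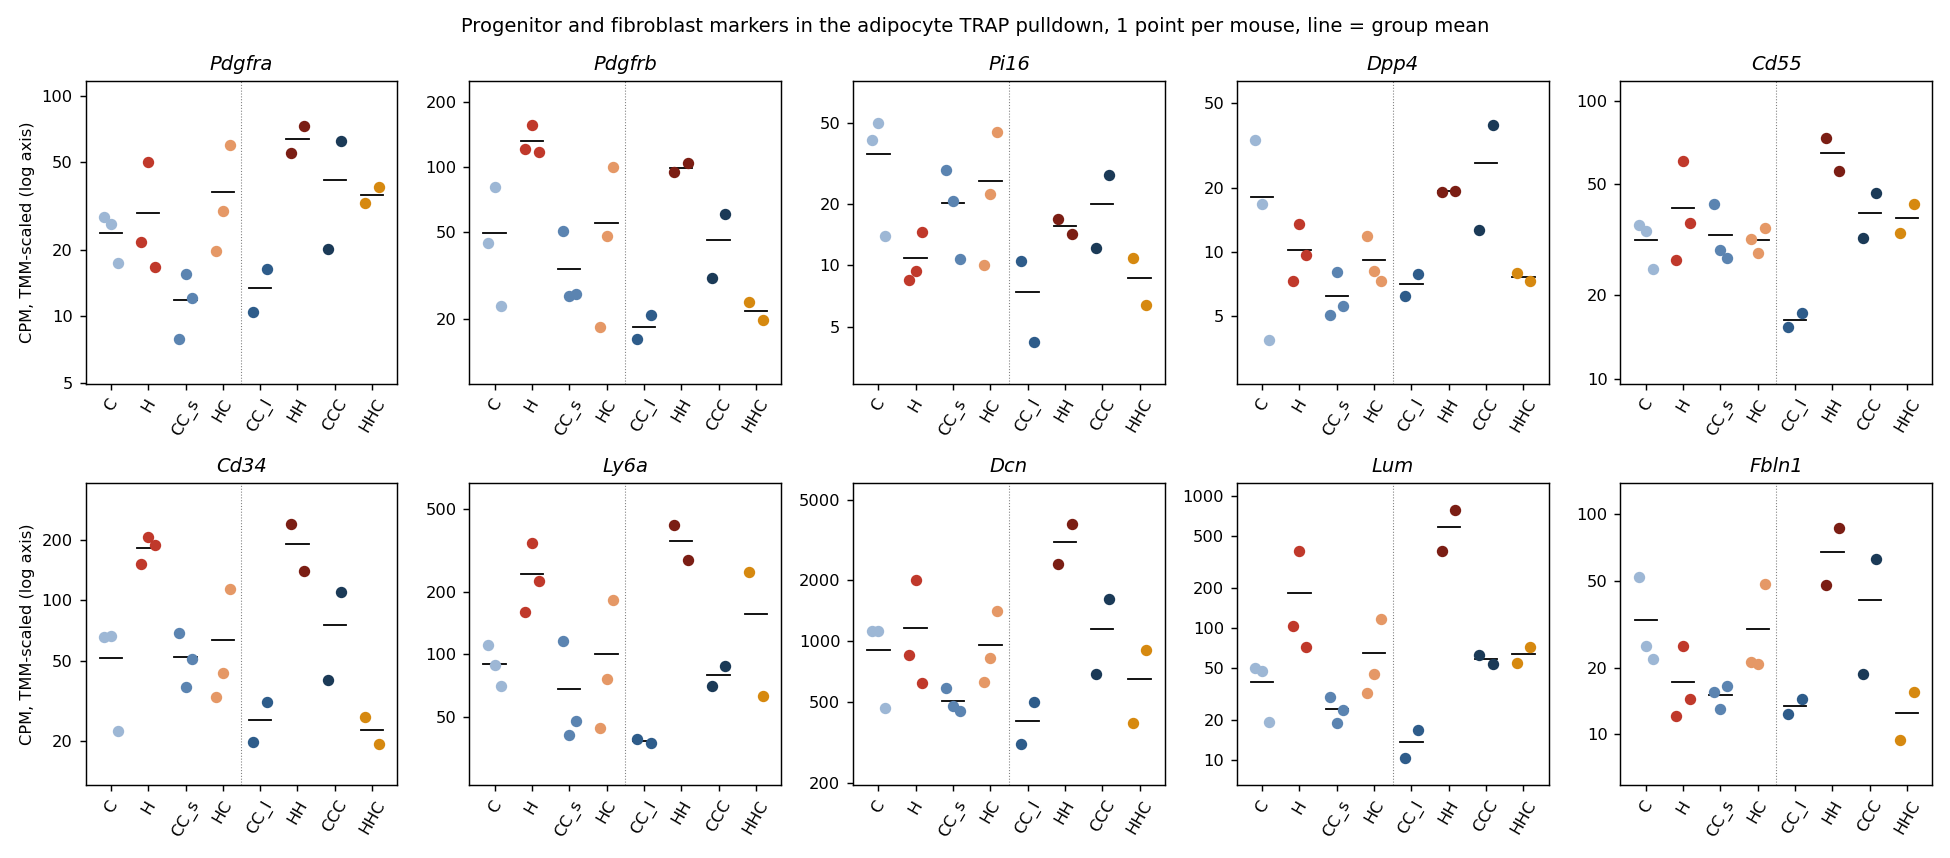
TMM-scaled CPM (log axis) of the 10 members in each of the 20 mice, 1 point per mouse, by group. The line is the group mean and the dotted line separates the short from the long arm. All HH points lie above all CC_l points in each panel, and Pi16 is lower in the H mice than in 2 of the 3 C mice.

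After 12 weeks of HFD, Cd34, which progenitors share with vessels, and the matrix proteoglycan Lum were higher in the pulldown, and no marker of interstitial progenitors passed the cut-off. Cd34 and Lum rose by log2 fold changes of 1.83 ± 0.52 (SE) and 2.26 ± 0.61 (SE) at the study's cut-off (edgeR quasi-likelihood test, nominal p under 0.01 with a change of at least 1 log2 unit). No member fell at that cut-off, and Pi16 came nearest, with a log2 fold change of -1.70 ± 0.59 (SE) and adjusted p = 0.148. None of the members had an adjusted p under 0.05, against 1.28% of tested genes that were higher at that threshold. Thus 2 of 10 members were called higher and 0 lower, where 3.57% of all tested genes were called higher and 2.92% lower. The median log2 fold change of the members was 0.38, against -0.15 over all tested genes.

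Among the receptors, Pdgfrb, the receptor for PDGF-B and PDGF-D that mural cells and part of the progenitors carry, stood at 44.5, 81.3 and 22.9 CPM in C replicates 1 to 3 and at 122, 157 and 118 CPM in H replicates 1 to 3. All H mice were above all C mice, but the difference of 1.41 ± 0.53 (SE) did not reach the cut-off (adjusted p = 0.178). Pdgfra, the receptor that marks the progenitor lineage as a whole, had 28.2, 26.2 and 17.6 CPM in C and 21.9, 50.1 and 16.8 CPM in H. Its groups overlapped, with H replicate 2 alone above the C mice, and the 95% interval of its log2 fold change ran from -0.73 to 1.33.

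Pi16, a secreted peptidase inhibitor that marks fibroblasts of the adventitia and interstitium, had 41.3, 50.5 and 14.0 CPM in C and 8.52, 9.40 and 14.7 CPM in H. C replicate 3 lay within the H range, and the high C mice were the libraries with high nuclear-retained RNA. Without the 4 libraries of high nuclear-retained RNA the log2 fold change of Pi16 was -0.25, and without C replicate 3 it was -2.08 and passed the cut-off. Dpp4, a protease that trims peptide hormones and chemokines, had 33.4, 16.8 and 3.85 CPM in C and 7.26, 13.5 and 9.69 CPM in H, so the H values lay inside the range of C. Its log2 fold change was -0.82 ± 0.56 (SE), and without the 4 libraries it was 1.52. In the fit without them, C replicate 3 was the only C mouse left. The median log2 fold change over all tested genes was 0.29 in that fit, against -0.15 with all libraries. Cd55, which protects cells from complement, had 35.8, 33.9 and 24.7 CPM in C and 26.7, 60.6 and 36.2 CPM in H, with overlapping groups and a log2 fold change of 0.39 ± 0.32 (SE).

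Cd34, a sialomucin of progenitor and endothelial surfaces, had 65.5, 65.9 and 22.3 CPM in C and 150.3, 207 and 188 CPM in H. All H mice were above all C mice (adjusted p = 0.0789). Ly6a, the GPI-anchored surface protein also known as Sca-1, had 111, 89.2 and 70.9 CPM in C and 159, 343 and 226 CPM in H. These groups did not overlap either, and the log2 fold change of 1.43 ± 0.56 (SE) had adjusted p = 0.204.

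Among the matrix genes, Lum alone was called. Lum, which encodes lumican and helps to space collagen fibrils, had 49.8, 47.2 and 19.3 CPM in C and 103, 380.4 and 71.1 CPM in H, without overlap (adjusted p = 0.0655). Dcn, its neighbour, had 1118, 1119 and 466 CPM in C and 851, 2005 and 625 CPM in H, with overlapping groups and a log2 fold change of 0.36 ± 0.56 (SE). Fbln1, a calcium-binding protein of basement membranes and elastic fibres, had 52.2, 25.2 and 22.0 CPM in C and 12.2, 25.3 and 14.5 CPM in H, and its log2 fold change was -0.93 ± 0.48 (SE). In all, 4 of 10 members (Pdgfrb, Cd34, Ly6a and Lum) did not overlap and were higher in H, against 13.4% of all tested genes, and none did not overlap and was lower, against 10.6%.

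H replicate 2 was the highest H library for 9 of the 10 members, all but Pi16. It also had the highest sum of epididymal epithelium genes among the H mice, at 1523 CPM against 458 and 138 CPM. Without it, Lum had a log2 fold change of 1.17 and was no longer called, and without C replicate 3 neither Cd34 (1.47) nor Lum (1.93) was called. Without the 4 libraries of high nuclear-retained RNA, the log2 fold changes were 2.64 for Pdgfrb, 3.14 for Cd34 and 3.38 for Lum. These values rest on C replicate 3 as the only C mouse left. It had the lowest CPM of the C mice for every member. Its sum of adipocyte markers, 143262 CPM, was the highest of all libraries.

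Markers of other cells moved with these changes. The sum of 8 endothelial markers was 662, 878 and 340.1 CPM in C and 2025, 2417 and 2108 CPM in H, with 5 of the 8 genes called higher. The sum of 10 macrophage markers was 352, 348 and 199 CPM in C and 1228, 3269 and 528 CPM in H, with 7 of the 10 called higher. The sum of 8 mural cell markers was 1635, 548 and 249 CPM in C and 1347, 1386 and 1429.9 CPM in H, and 2 of the 8 were called higher, whereas 3 of 7 mesothelial markers were called lower. The part of these cells in the member changes was not tested.

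**Figure D2:**
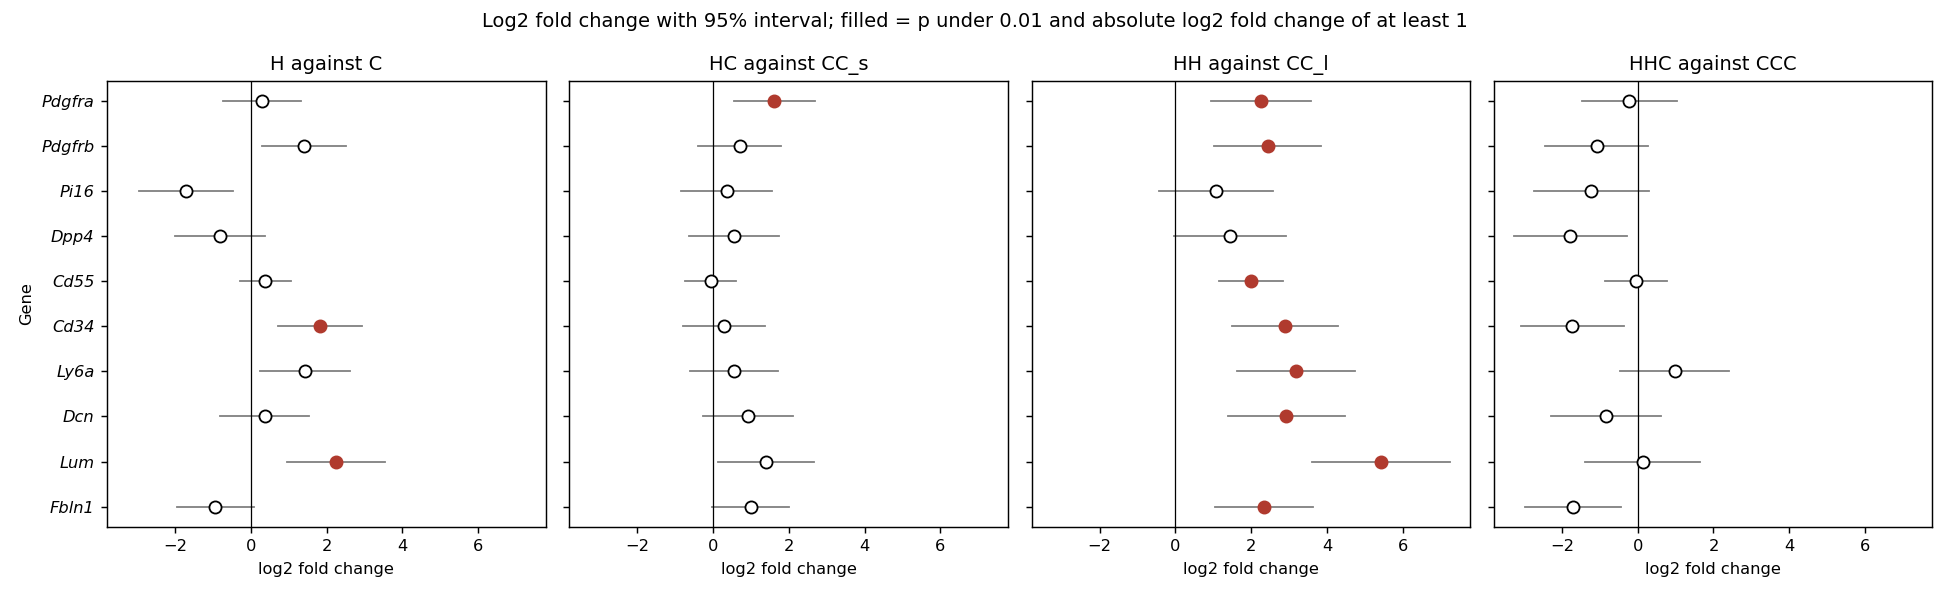
Log2 fold change of each member against the chow group of the same age, with its 95% interval from the edgeR fit, in the 4 comparisons. Filled points passed the cut-off (nominal p under 0.01, change of 1 log2 unit or more), 2 members in H, 1 in HC, 8 in HH and 0 in HHC.

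After WL from the short obesity, the progenitor receptor Pdgfra was the member past the cut-off. Pdgfra had 7.94, 15.5 and 12.2 CPM in CC_s replicates 1 to 3 and 19.8, 30.0 and 59.9 CPM in HC replicates 1 to 3. All HC mice were above all CC_s mice, and the log2 fold change of 1.62 ± 0.50 (SE) passed the cut-off (adjusted p = 0.536). It was the 1 member of 10 called, where 1.57% of all tested genes were called higher and 0.172% lower. No gene of the 21464 tested had an adjusted p under 0.05 in this comparison with edgeR's quasi-likelihood test, and 1866 (8.69%) had a nominal p under 0.05, Pdgfra and Lum among them.

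The matrix members also sat higher in HC than in CC_s without passing the cut-off. Lum had 30.2, 19.2 and 24.0 CPM in CC_s and 32.3, 44.7 and 116 CPM in HC, a log2 fold change of 1.40 ± 0.60 (SE) with adjusted p = 0.556. Dcn had 585, 477 and 453 CPM in CC_s and 632, 823 and 1403 CPM in HC, a log2 fold change of 0.92 ± 0.57 (SE). Fbln1 had 15.6, 13.1 and 16.6 CPM in CC_s and 21.4, 20.8 and 48.1 CPM in HC, a log2 fold change of 0.99 ± 0.48 (SE). Pdgfra and these 3 matrix genes made up the 4 members whose HC mice all exceeded the CC_s mice, against 8.01% of all tested genes, and no member was lower without overlap, against 5.82%. The median log2 fold change of the members was 0.63, beside 0.27 over all tested genes, which were thus shifted the same way.

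The vessel-shared and interstitial markers overlapped between HC and CC_s. Pdgfrb had 50.8, 25.4 and 25.9 CPM in CC_s and 18.2, 48.0 and 100.0 CPM in HC. Cd34 had 68.2, 36.8 and 50.8 CPM in CC_s and 32.9, 43.4 and 113 CPM in HC. HC replicate 3 was the highest and HC replicate 1 the lowest HC library for both genes. Ly6a had 116, 41.1 and 47.9 CPM in CC_s and 44.4, 76.0 and 182 CPM in HC, and Pi16 had 29.5, 20.7 and 10.8 CPM in CC_s and 10.0, 22.6 and 45.5 CPM in HC. The log2 fold changes of these 4 genes lay between 0.28 (Cd34) and 0.70 (Pdgfrb). Dpp4 (0.55) and Cd55 (-0.06, 95% interval -0.73 to 0.61) were not called either.

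HC replicate 3, the HC library with high nuclear-retained RNA and few adipocyte transcripts, was the highest HC library for 9 members, all but Dpp4. Without it no member was called, Pdgfra kept a log2 fold change of 1.06, Lum had 0.65, and the log2 fold changes of Pdgfrb (-0.046), Pi16 (-0.33), Cd34 (-0.45) and Ly6a (-0.19) turned negative. The count was also 0 without CC_s replicate 1 and without CC_s replicate 3. Macrophage markers were higher in HC, with sums of 499, 532 and 1581 CPM against 245, 195 and 175 CPM in CC_s and 7 of 10 called higher. Endothelial markers overlapped, at 278, 552 and 1336 against 1204, 224 and 391 CPM, with none of the 8 called. Their part in the member values was not tested.

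Of the 4 comparisons, the one after 25 weeks of HFD had the most markers past the cut-off. Of the 10 members, 8 rose at the cut-off and 0 fell, where 4.92% of all tested genes were called higher and 1.88% lower. Cd55, Cd34, Ly6a, Dcn and Lum also had an adjusted p under 0.05, 5 of 10 members beside 1.75% of all tested genes. The median log2 fold change of the members was 2.38, against -0.23 over all tested genes. All 10 members were higher in both HH mice than in both CC_l mice, an arrangement found for 26.3% of tested genes, while 28.9% lay lower without overlap.

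Lum rose most. It had 10.3 and 16.9 CPM in CC_l replicates 1 and 2 and 381 and 785 CPM in HH replicates 1 and 2, a log2 fold change of 5.42 ± 0.87 (SE) with an adjusted p of 0.0145. Dcn had 311 and 501 CPM in CC_l and 2403 and 3790.2 CPM in HH, a log2 fold change of 2.93 ± 0.74 (SE) with an adjusted p of 0.0486. HH replicate 2 was the higher library for both proteoglycans. Fbln1 had 12.4 and 14.5 CPM in CC_l and 48.0 and 87.1 CPM in HH, a log2 fold change of 2.33 ± 0.61 (SE) with an adjusted p of 0.0584.

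For Ly6a, Cd34 and Cd55, HH replicate 1 was the higher HH library. Ly6a had 39.3 and 37.7 CPM in CC_l and 416 and 284 CPM in HH, a log2 fold change of 3.18 ± 0.73 (SE) (adjusted p = 0.0344). Cd34 had 19.7 and 31.2 CPM in CC_l and 239 and 139 CPM in HH, a log2 fold change of 2.89 ± 0.67 (SE) (adjusted p = 0.0344). Cd55 had 15.3 and 17.2 CPM in CC_l and 73.6 and 56.0 CPM in HH, a log2 fold change of 2.00 ± 0.40 (SE) (adjusted p = 0.0253). Cd55 had the smallest fold of these genes but also the smallest SE, and its adjusted p was below those of Cd34 and Ly6a.

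Both receptors rose. Pdgfra had 10.4 and 16.4 CPM in CC_l and 55.0 and 72.9 CPM in HH (log2 fold change 2.26 ± 0.63 (SE), adjusted p = 0.0703). Pdgfrb had 16.0 and 20.7 CPM in CC_l and 94.9 and 104 CPM in HH (log2 fold change 2.44 ± 0.67 (SE), adjusted p = 0.0664). The markers that were not called were those of interstitial progenitors other than Cd55. Pi16 had 10.6 and 4.19 CPM in CC_l and 17.0 and 14.3 CPM in HH, a log2 fold change of 1.08 ± 0.71 (SE). Dpp4 had 6.22 and 7.86 CPM in CC_l and 19.1 and 19.4 CPM in HH, a log2 fold change of 1.45 ± 0.70 (SE) with adjusted p = 0.295.

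Without CC_l replicate 1, the library with spermatid transcripts, 4 members were still called (Cd55, Cd34, Ly6a and Lum), with log2 fold changes of 1.93 to 5.12, and the log2 fold change of each of the 10 members stayed above 0. With the lone CC_l mouse assumed to vary like the other groups, none of them had an adjusted p under 0.05. Markers of other cells moved in the same direction here too. Macrophage marker sums were 191 and 495 CPM in CC_l and 3326 and 4170.3 CPM in HH (8 of 10 called higher), and endothelial sums 207 and 232 and 2208 and 1072 CPM (8 of 8). Mural cell sums were 212 and 198 and 1346 and 757 CPM (4 of 8 called higher), while adipocyte marker sums were lower, at 30765 and 35097 CPM in HH against 71784 and 81868 CPM in CC_l. All 13 tested genes encoded in mitochondria, whose RNA is translated on mitochondrial ribosomes, had higher values in both HH mice than in both CC_l mice, with a median log2 fold change of 2.48 and none called, and their sums were 23712 and 21279 CPM in HH and 4851 and 3669.7 CPM in CC_l. Whether these cells or this RNA account for the members was not tested.

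After WL from the long obesity, no member was called in either direction, where 0.447% of all tested genes were called higher and 2.67% lower. DESeq2 called none either, and at a nominal p under 0.05 (10.7% of tested genes) there were 3 members, Dpp4, Cd34 and Fbln1, all lower in HHC. The median log2 fold change of the members was -0.95, against -0.06 over all tested genes. In 5 members, Pdgfrb, Pi16, Dpp4, Cd34 and Fbln1, both HHC mice lay below both CCC mice, as did 20.3% of tested genes, and no member lay above without overlap, as 8.49% of tested genes did.

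The lower members in HHC came from different roles. Fbln1 had 18.9 and 62.8 CPM in CCC replicates 1 and 2 and 9.39 and 15.5 CPM in HHC replicates 1 and 2, a log2 fold change of -1.71 ± 0.60 (SE) (adjusted p = 0.324). Cd34 had 39.8 and 109.8 CPM in CCC and 26.1 and 19.2 CPM in HHC, a log2 fold change of -1.72 ± 0.64 (SE) (adjusted p = 0.35). Dpp4 had 12.6 and 39.6 CPM in CCC and 7.96 and 7.32 CPM in HHC, a log2 fold change of -1.77 ± 0.71 (SE) (adjusted p = 0.385). CCC replicate 2 held the high value in each of the 3. Pdgfrb had 30.8 and 61.0 CPM in CCC and 23.8 and 19.7 CPM in HHC, a log2 fold change of -1.08 ± 0.64 (SE). Pi16 had 12.2 and 27.9 CPM in CCC and 10.9 and 6.35 CPM in HHC, a log2 fold change of -1.22 ± 0.72 (SE).

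The other 5 members overlapped between HHC and CCC. Ly6a had 70.9 and 88.0 CPM in CCC and 249 and 63.3 CPM in HHC, so that its HHC mice fell on either side of the controls, and its log2 fold change of 0.97 ± 0.68 (SE) was -0.33 without HHC replicate 1. Lum had 62.1 and 53.8 CPM in CCC and 54.6 and 71.9 CPM in HHC, a log2 fold change of 0.13 with a 95% interval of -1.39 to 1.64. Dcn had 691 and 1611 CPM in CCC and 394 and 900.3 CPM in HHC, with a log2 fold change of -0.83 ± 0.69 (SE). The 95% intervals of Ly6a (-0.46 to 2.41) and Dcn (-2.29 to 0.63) were nearly as wide as that of Lum, which limits what 2 mice in each group could show. Pdgfra (20.3 and 62.5 against 32.5 and 38.8 CPM) and Cd55 (32.0 and 46.6 against 33.5 and 42.3 CPM) had log2 fold changes of -0.22 and -0.05.

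Here the control mice differed from each other. CCC replicate 2, with high nuclear-retained RNA, had a mesothelial marker sum of 434 CPM against 109 CPM in CCC replicate 1, and an adipocyte marker sum of 36713 CPM against 86391 CPM. Without CCC replicate 1, Dpp4 (-2.38), Cd34 (-2.28) and Fbln1 (-2.34) were called lower. Without CCC replicate 2 no member was called, and the log2 fold changes were -0.73 for Dpp4, -0.82 for Cd34, -0.60 for Fbln1 and 0.81 for Pdgfra. Endothelial marker sums were 328 and 715 CPM in CCC and 118 and 134 CPM in HHC, with 2 of 8 genes called lower (Tek and Vwf), and macrophage sums were 751 and 789 and 1051 and 695 CPM. The part of these cells was not tested.

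Whether the effect of long HFD differed from that after WL was tested as the difference between the log2 fold change of HH against CC_l and that of HHC against CCC. For such differences between effects the threshold was an adjusted p under 0.05. The difference was positive and had an adjusted p under 0.05 for Cd34 (4.62 ± 0.92 (SE), adjusted p = 0.0339), Lum (5.30 ± 1.08 (SE), adjusted p = 0.0352) and Fbln1 (4.04 ± 0.86 (SE), adjusted p = 0.0376). These were 3 of 10 members, where 0.815% of all tested genes passed. Pdgfrb (3.52, adjusted p = 0.0809), Dcn (3.76, adjusted p = 0.084) and Cd55 (2.05, adjusted p = 0.0891) came next, and the estimates of all 10 members were above 0. The calls rested on few mice. No member passed without CC_l replicate 1, CC_l replicate 2, HH replicate 1, CCC replicate 2, HHC replicate 1 or HHC replicate 2, 1 passed without HH replicate 2 (Cd34), and 5 passed without CCC replicate 1. No member passed with RLE scaling in place of TMM, and without the 4 libraries of high nuclear-retained RNA 1 did (Cd34, 3.62).

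No member had an adjusted p under 0.05 in the other differences between effects. At the cut-off used for single comparisons (nominal p under 0.01, at least 1 log2 unit), 7 members differed between HH and HHC, 4 between H and HH (Pi16, Cd55, Lum and Fbln1, each with the lower estimate in H), 1 between HC and HHC (Fbln1, with the higher estimate in HC) and 0 between H and HC, where 5.84%, 0.913%, 2.88% and 2.99% of all tested genes did. In the short arm, the effects in H and HC were apart by 1.54 ± 0.72 (SE) for Cd34, by -1.93 ± 0.68 (SE) for Fbln1 and by -2.05 ± 0.82 (SE) for Pi16, with adjusted p of 0.414, 0.338 and 0.353. Between H and HH the largest difference among the members was that of Fbln1 (-3.26 ± 0.78 (SE), adjusted p = 0.848), whose log2 fold change was -0.93 in H and 2.33 in HH. Between HC and HHC it was again that of Fbln1, with a difference of 2.70 ± 0.77 (SE) and an adjusted p of 0.343. At a nominal p under 0.05 with edgeR, 3 members differed between H and HC (Pi16, Cd34 and Fbln1), 7 between H and HH and 5 between HC and HHC, where 11.8%, 5.79% and 11.8% of all tested genes did. The groups that carry the H and HH effects belong to different arms, whose sample descriptions have different prefixes, and their mice differ in age. Arm, age and duration of HFD therefore cannot be told apart.

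The chow groups of different age stood apart in these genes, and the differences between effects across time points include those gaps. The older chow groups had also been moved to a different chow, so age and chow diet cannot be told apart here. In CCC, all 10 members were higher in both mice than in both CC_l mice, as were 17.6% of tested genes (17.4% lay lower), and their median log2 fold change was 1.53 against -0.05 over all tested genes. Cd55 was the 1 member called, at 1.27 ± 0.40 (SE) (adjusted p = 0.347), where 0.755% of tested genes were called higher and 1.91% lower. Lum had the largest estimate, at 2.09 ± 0.75 (SE) (adjusted p = 0.366). With the 4 libraries of high nuclear-retained RNA left out, among them CCC replicate 2, no member was called. In the short arm, CC_s against C gave no called member with edgeR, where 0.592% of tested genes were called higher and 1.85% lower. At a nominal p under 0.05 (11.2% of genes) it gave Dpp4 (-1.53) and Fbln1 (-1.13). For Dpp4 the high C values, 33.4 and 16.8 CPM, were those of C replicates 1 and 2, which have high nuclear-retained RNA. C replicate 3, at 3.85 CPM, lay below all CC_s mice (5.03 to 8.07 CPM). Fbln1 in C replicate 3, at 22.0 CPM, lay above all of them. Pdgfra and Fbln1 were lower in all CC_s mice than in all C mice, as were 7.39% of tested genes, and no member was higher without overlap (5.31%).

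Genes that act with the members or share their families were read from lists fixed by name. Of the 4 PDGF ligands, which bind Pdgfra and Pdgfrb, Pdgfd was called higher in H (2.11 ± 0.50 (SE), adjusted p = 0.0371) and in HH (3.33 ± 0.64 (SE), adjusted p = 0.0244), and no ligand was called in HC or HHC. Of 6 other genes of interstitial progenitors, none was called in H, HC or HHC and 1 was called higher in HH (Limch1, 1.62). Of 8 genes of preadipocytes and regulatory progenitors, F3, which encodes tissue factor, was called lower in H (-1.28), higher in HH (1.66) and lower in HHC (-1.74), and Gdf10, a BMP family ligand, was called higher in HH (2.13).

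Matrix genes beyond Dcn, Lum and Fbln1 were also called. Of 11 tested small leucine-rich proteoglycans, 3 were higher in H (Bgn 2.21, Prelp 1.84 and Aspn 2.41) and 1 lower (Podn -2.08), and 4 were higher in HH (Bgn 2.41, Ogn 1.72, Aspn 3.77 and Ecm2 3.22). None was called in HC or HHC. Of 7 genes listed with the fibulins, 3 were higher in H (Fbln2 1.83, Fbln5 2.17 and Fbln7 2.83), 1 in HC (Fbln7 4.47), 6 in HH and none in HHC. Their median log2 fold change was 0.98 in H, 0.62 in HC, 2.76 in HH and -0.85 in HHC. Fbln1 itself was not called in H, where 3 of these genes were.

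Of 16 other fibroblast genes, 8 were called higher in H, 3 in HC, 11 in HH and none in HHC, and none was called lower in these comparisons. Their median log2 fold changes were 1.36, 0.96, 2.68 and -0.73. The 3 called in HC were Serpinf1 (1.43), which encodes the secreted factor PEDF, Mmp2 (1.83), a gelatinase, and Prrx1 (1.45), a mesenchymal homeobox factor. Serpinf1 was also called in H (2.63) and in HH (3.95, adjusted p = 0.00204). Among the relatives of single members, Ly6c1 was higher in H (2.30) and HH (3.38), Ly6e was higher in H (1.62) and HHC (1.36), Fap, the fibroblast protease related to Dpp4, was higher in HH (3.00), and neither Podxl nor Podxl2, the relatives of Cd34, was called in the 4 comparisons. Among complement regulators listed beside Cd55, Cr1l (1.38) was higher in HH and Cd46 (-3.21) was lower in HHC.

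The members tended to be high in the same mice. Over the 20 mice, Pearson's r of log2 CPM was at least 0.7 for 17 of the 45 pairs, was below 0 for none, and had a median of 0.611. Of the 45 pairs, 34 had an unadjusted permutation p under 0.05. The permutations shuffled all 20 mice across groups, so a small p can also come from differences between groups. The number of pairs at 0.7 or above was 11 without the 2 mice farthest from the median of each pair's first gene, 11 in the short arm, 32 in the long arm and 9 for deviations from group means, which remove differences between groups. Without the 4 libraries of high nuclear-retained RNA, 19 pairs were at 0.7 or above over 16 mice and 2 were below 0. In deviations without them, over the 14 mice of groups that kept at least 2, 6 pairs were at 0.7 or above, 13 were below 0 and the median r was 0.326, against 0.555 with them. A first principal component held 64.4% of the variance with the same sign for all 10 genes, and the second held 13.1%, with Pi16, Dpp4 and Fbln1 at one end and Ly6a and Lum at the other.

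**Figure D3:**
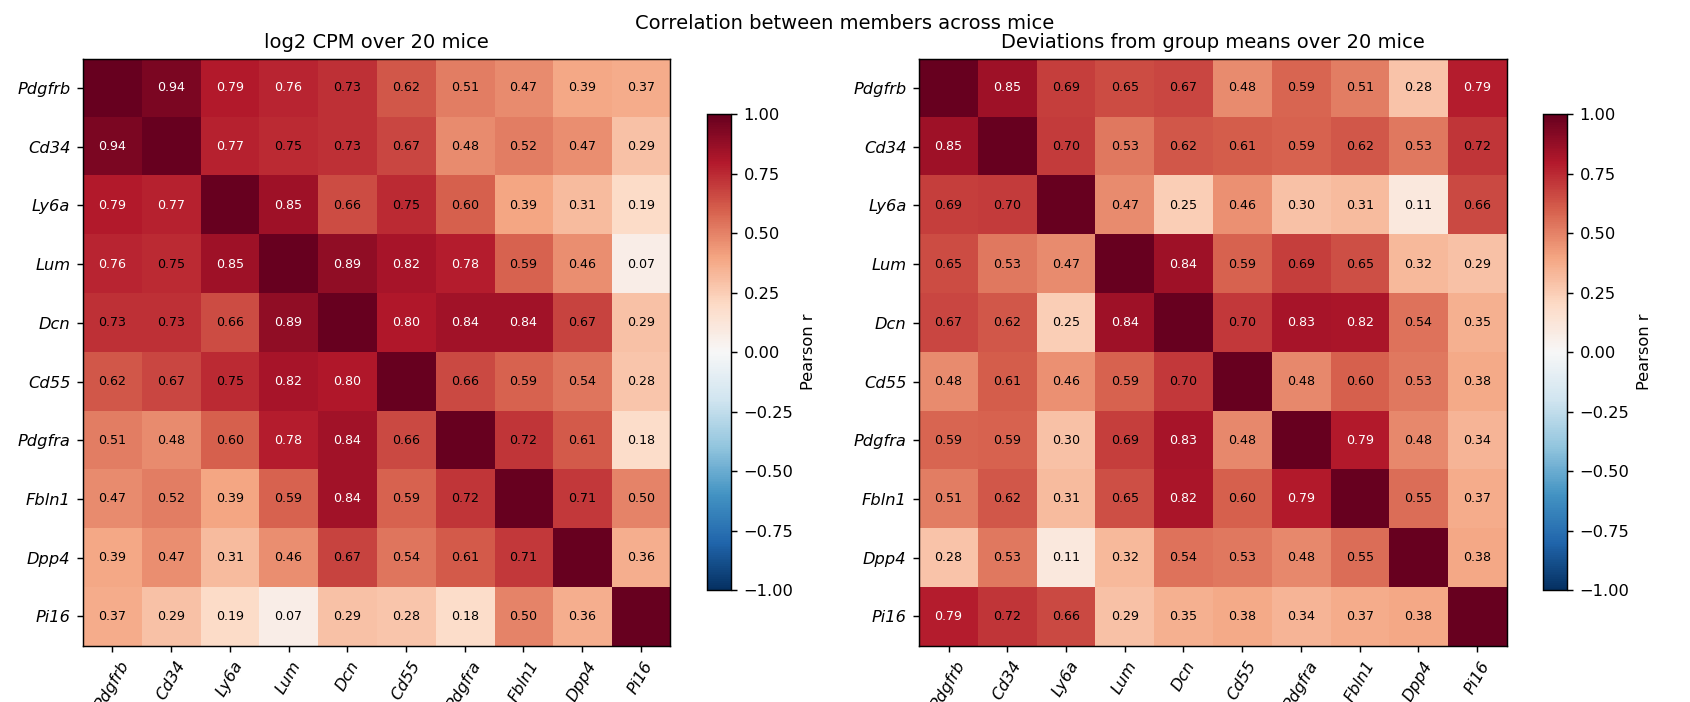
Pearson's r between members over 20 mice, for log2 CPM (first panel) and for deviations of log2 CPM from the group means (second panel). Pdgfrb and Cd34 form the pair with the highest r in both panels, 0.940 and 0.851, and Pi16 has the palest row in the first panel.

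Pdgfrb and Cd34 were the closest pair, with r = 0.940 and rho = 0.941 (n = 20, both permutation p = 1e-05, the smallest the permutations can give), and r = 0.923 without the 2 farthest mice. The relation was present in the short arm (r = 0.932), in the long arm (r = 0.973) and in deviations from group means (r = 0.851), where it was 0.614 without the 4 libraries. Dcn and Lum, the neighbouring proteoglycan genes, had r = 0.889 and rho = 0.780 (permutation p = 1e-05 and 0.00011), r = 0.792 without the 2 farthest mice, both of them HH, and r = 0.844 in deviations, or 0.910 without the 4 libraries. Pdgfra was closest to Dcn, with r = 0.840 and rho = 0.815 over mice and r = 0.825 in deviations, or 0.738 without the 4 libraries.

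Ly6a and Lum had r = 0.850 over mice but 0.473 in deviations from group means, so much of that relation lay between groups. Pi16 behaved in the opposite way. It had the lowest mean r with the other members (0.282), no pair at 0.7, and r = 0.0651 with Lum, yet in deviations from group means it had r = 0.788 with Pdgfrb and 0.715 with Cd34, against 0.375 and 0.293 over mice. Without the 4 libraries of high nuclear-retained RNA these values were lower, at 0.491 and 0.177 in deviations and 0.254 and 0.235 over mice. In deviations, all of Pi16 (0.761), Pdgfrb (0.843) and Cd34 (0.858) were also correlated with the nuclear-retained sum, and without the 4 libraries these coefficients were 0.368, 0.596 and 0.502.

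Dcn was the member nearest to the rest. Its r with the mean of the other 9 was 0.926, as high as or higher than that of all but 12 of 21454 other tested genes (0.0559%), whereas 27.7% of other genes were as close to the mean of the 9 as Pi16, which had r = 0.338. The genes outside the members with the highest r to the mean of all 10, over 20 mice, were Pla1a (0.941), Zdhhc20 (0.939), P4ha1 (0.937), Fstl1 (0.936), Ms4a4d (0.936), Ecm1 (0.935), Prss23 (0.935) and Grn (0.934). These values share libraries and depth and are given as a description.

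Marker sums of other cells followed some members closely and others hardly at all. Among 70 relations between a member and a marker sum, Cd34 had r = 0.939 and rho = 0.952 with the endothelial sum, and Pdgfrb had r = 0.936 and rho = 0.916 with the same sum. The unadjusted permutation p of r was 1e-05 for Cd34, 1e-05 for Pdgfrb, 1e-05 for Lum with the macrophage sum and 0.00058 for Pi16 with nuclear-retained RNA, where 1e-05 is the smallest possible. In deviations from group means, r with the endothelial sum was 0.854 for Cd34 and 0.857 for Pdgfrb. With the mural cell sum, r was 0.845 for Cd34 and 0.808 for Pdgfrb over mice, and 0.593 and 0.383 in deviations. Lum had r = 0.929 and rho = 0.904 with the macrophage sum, 0.887 without the 2 farthest mice, 0.956 in the short arm, 0.969 in the long arm and 0.887 in deviations. Pi16 had r = -0.0993 with the macrophage sum and r = 0.696 with nuclear-retained RNA, which was 0.935 in the short arm, 0.299 in the long arm and 0.166 without the 4 libraries of high nuclear-retained RNA. With the sum of mitochondrially encoded RNA, r lay between 0.287 (Pdgfra) and 0.70 (Pdgfrb) over mice and reached 0.906 in the long arm (Fbln1). The part of this RNA in the member values was not tested. All 10 members had a negative r with the adipocyte sum over the 20 mice, between -0.739 (Pdgfra) and -0.437 (Pi16). Without the 4 libraries of high nuclear-retained RNA, r lay between -0.827 (Lum) and 0.105 (Pi16) over 16 mice. In deviations from group means without them, over 14 mice, it lay between -0.521 (Pdgfra) and 0.016 (Pi16).

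**Figure D4:**
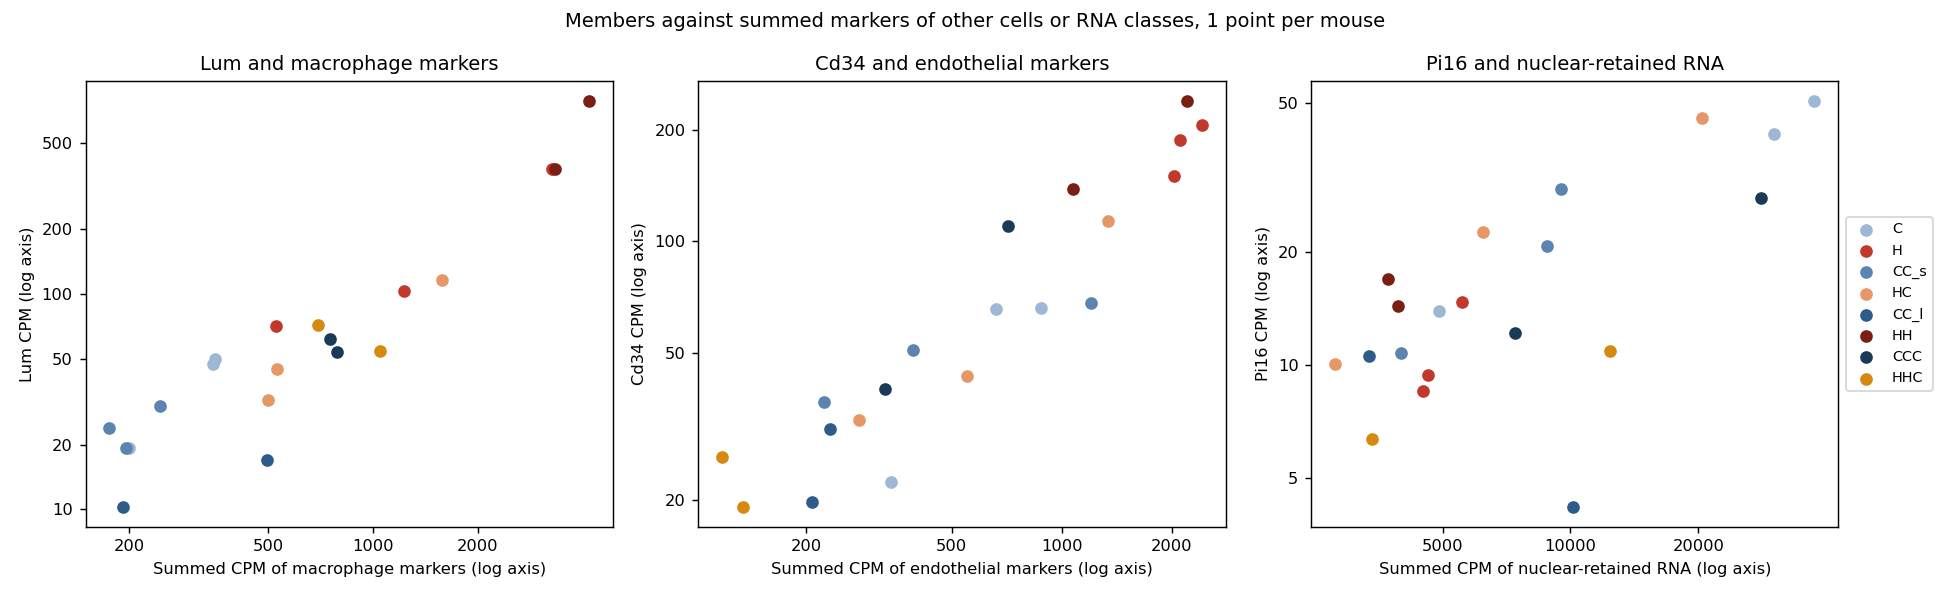
CPM of a member against the summed CPM of a marker list in each of the 20 mice (log axes), for Lum and macrophage markers, Cd34 and endothelial markers, and Pi16 and nuclear-retained RNA. The first and second panels have r = 0.929 and 0.939 over log2 values, and in the third (r = 0.696) C replicate 2 has the highest Pi16.

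Ratios between members were chosen after the values were seen and are given without a test. CPM of Lum divided by that of Dcn was 0.0445, 0.0422 and 0.0413 in C and 0.122, 0.19 and 0.114 in H, and 0.0332 and 0.0337 in CC_l and 0.158 and 0.207 in HH. After WL it was 0.0511, 0.0542 and 0.0826 in HC against 0.0516, 0.0402 and 0.0529 in CC_s, and 0.139 and 0.0799 in HHC against 0.0899 and 0.0334 in CCC. All mice on HFD were above all of their chow controls in this ratio, whereas 1 HC mouse and 1 HHC mouse lay within the range of theirs. Pi16 divided by Pdgfra was 1.46, 1.93 and 0.796 in C and 0.39, 0.188 and 0.874 in H, and 3.72, 1.34 and 0.885 in CC_s and 0.508, 0.751 and 0.759 in HC, so that no HC mouse reached the CC_s mice. Ly6a divided by Cd34 was 9.51 and 3.30 in HHC against 1.78 and 0.801 in CCC. Both HHC values were above every other mouse of the series, but C replicate 3, at 3.17, was close to HHC replicate 2.

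**Figure D5:**
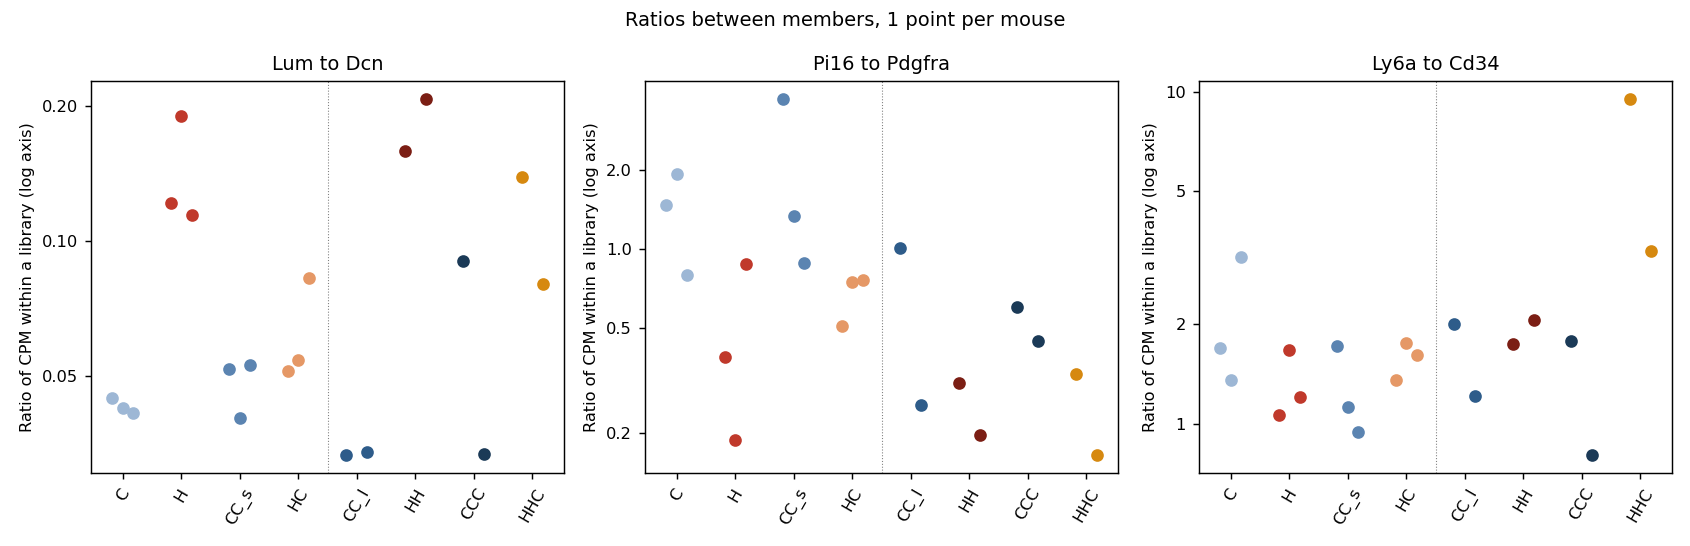
Ratio of CPM (log axis) in each mouse by group, for Lum to Dcn, Pi16 to Pdgfra and Ly6a to Cd34, 1 point per mouse, with the dotted line between the arms. Lum to Dcn is higher in the H and HH mice than in their chow controls. The 2 HHC mice hold the highest ratios of Ly6a to Cd34, with C replicate 3 close to HHC replicate 2.

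The counting leaves some members uncertain. Of the 50-base words in the transcripts of Ly6a, 19% also occur in other genes, most often in Ly6c1, and of those of Cd55, 8% do, most often in Cd55b, while the other 8 members share at most 0.94%. Pdgfra, Pi16, Dpp4, Cd55 and Cd34 overlap other annotated genes, mostly on the opposite strand, and the strand setting of the counting is not given in the sources used here. The measured neighbours reached at most 3.38 CPM in any library.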

How the data were processed

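TRAP–seq libraries of 20 mice in 8 groups were analysed. Per the labels, the authors deposited raw counts per gene, and the submitters' processing notes name FastQC 0.11.9, Trim Galore 0.6.6, HISAT2 2.2.1, Subread 2.0.1, edgeR and mm10. Between 74.4% and 89.2% of nonzero counts were even, so halved counts were tried. Each library is 1 mouse, and p-values measure the spread between mice. Floors cover counting error only. The members and all lists were chosen with earlier results of these data known. All members are named, and from other lists called genes, of which 1 is not reported here. In edgeR 4.0.16 (limma 3.58.1, R 4.3.3), TMM factors, filterByExpr and the quasi-likelihood test were run over all groups, which share 1 estimate of the spread, with Benjamini-Hochberg adjustment over 21464 tested genes. The script was tested on simulated data. Correlations used log2 CPM with a prior count of 2 and two-sided tests with 100000 permutations (scipy 1.17.1), unadjusted. DESeq2 1.42.0, RLE scaling, no filter, a likelihood ratio test, a replicate block, fits of the compared groups and leaving out each mouse were alternatives. Leaving out 4 libraries was chosen after seeing the data. Gene positions came from GENCODE vM21 and promoters from RefSeq.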

Additional observations from a re-analysis of the deposited data

Results flagged for a closer look

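The log2 fold changes against chow in HH and in HHC differed in the edgeR test of the difference itself for 3 members. The log2 fold change in HH against CC_l exceeded that in HHC against CCC by 4.62 for Cd34, by 5.30 for Lum and by 4.04 for Fbln1, with adjusted p of 0.0339, 0.0352 and 0.0376. Both HH mice were above both CC_l mice in these genes, and both HHC mice were below both CCC mice for Cd34 and Fbln1 but not for Lum. The calls rested on few mice, as given above. With RLE scaling, the replicate block or fits of the compared groups alone, no member passed. Halved counts gave 2, and DESeq2, the likelihood ratio test and no filter on low counts each gave 7. Each difference also includes the gap between the chow groups, and all 3 genes were higher in both CCC mice than in both CC_l mice. CC_l replicate 1 held spermatid transcripts and CCC replicate 2 high nuclear-retained RNA. The cause of the differences was not tested.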

How the results depend on the processing

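Leaving out each mouse in turn gave 1 to 3 called members in H against C, 0 to 1 in HC against CC_s, 4 to 8 in HH against CC_l, 0 to 3 in HHC against CCC, 0 to 1 in CC_s against C and 0 to 5 in CCC against CC_l. It gave 0 to 5 members whose effects differed between HH and HHC, none between H and HC, H and HH or HC and HHC, and 13 to 19 pairs at r of 0.7 or above. At an adjusted p under 0.05 the called members numbered 0 in H against C, 0 in HC against CC_s, 5 in HH against CC_l and 0 in CCC against CC_l. Without the filter on low counts they numbered 5 in H against C, 3 in HC against CC_s, 3 in HHC against CCC, 3 in CC_s against C and 6 in CCC against CC_l, and effects differed in 2 members between H and HC, 7 between HH and HHC, 3 between H and HH and 1 between HC and HHC. The likelihood ratio test gave 4 in H against C, 2 in HHC against CCC, 2 in CCC against CC_l and 7 between HH and HHC. DESeq2 gave 7 between HH and HHC, 1 between H and HH, 1 in CC_s against C and 2 in CCC against CC_l, and RLE scaling 0 between HH and HHC and 1 in CC_s against C. Fits of the compared groups alone gave 0 between HH and HHC, and with halved counts 0 in CCC against CC_l. Without the 4 libraries of high nuclear-retained RNA there were 0 in HC against CC_s, 0 in CCC against CC_l and 1 between HH and HHC. Pairs at 0.7 or above numbered 11 in the short arm, 32 in the long arm and 9 in deviations from group means. With the replicate block, 0 members differed between HH and HHC and 0 were called in CCC against CC_l. For these other settings the share of all tested genes that passed was not computed. The counts therefore show only how far the calls moved. Deviations of same-numbered mice from their group means had r from -0.586 to 0.282 in the short arm and from -0.260 to 0.115 in the long arm. Different-numbered mice of the short arm had r from -0.371 to 0.587. With 2 mice in a group the deviations mirror each other, and with 3 they are bound together as well. The check therefore cannot decide whether the numbers pair the mice.

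Directions turned in H against C without H replicate 2 for Pdgfra (-0.31), Cd55 (-0.0026) and Dcn (-0.29), and without the 4 libraries for Dpp4 (1.52). In HC against CC_s, without the 4 libraries and without HC replicate 3, they turned for Pdgfrb (-0.099 and -0.046), Pi16 (-0.37 and -0.33), Cd34 (-0.51 and -0.45) and Ly6a (-0.26 and -0.19), and for Cd55 without the filter (0.036), without CC_s replicate 1 (0.17) and without HC replicate 2 (0.01). In HHC against CCC they turned without the 4 libraries and without CCC replicate 2 for Pdgfra (0.89 and 0.81) and Cd55 (0.32 and 0.24), for Cd55 also with DESeq2 (0.075), RLE scaling (0.074), halved counts (0.11), the compared groups alone (0.091) and without HHC replicate 1 (0.10), for Ly6a without HHC replicate 1 (-0.33) and for Lum without HHC replicate 2 (-0.086). The highest values with 1 mouse left out were 0.59 (Pdgfra), 0.62 (Cd55) and 0.66 (Dcn) in H against C, 1.12 (Pdgfrb), 0.74 (Pi16), 0.59 (Cd34) and 1.18 (Ly6a) in HC against CC_s, and 1.64 (Ly6a) and 0.31 (Lum) in HHC against CCC, and the lowest were -0.18 (Cd55) in HC against CC_s and -0.81 (Pdgfra) and -0.30 (Cd55) in HHC against CCC. The cause was not tested. RLE scaling moved the median over all genes by over 0.1 between HH and HHC, from -0.011 to -0.16, between HC and HHC, from 0.50 to 0.38, and in CC_s against C, from -0.17 to -0.31. Leaving out the 4 libraries moved this median from -0.15 to 0.29 in H against C and from 0.27 to 0 in HC against CC_s. Between HH and HHC it moved from -0.011 to -0.35. With 2 mice in each group of the long arm, the spread rests on the estimate shared over groups.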
